A study of Mus musculus with 6 samples.

Results

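The Zic family encodes zinc finger transcription factors related to the GLI factors of hedgehog signalling, and the 4 members described here, Zic1, Zic2, Zic4 and Zic5, were taken from 18193 genes with a probe set of their own on the array. They were read by 8 of its 45037 non-control probe sets. A probe set is a group of short array probes that reports 1 transcript region as 1 intensity. All probe sets with 1 of these 4 symbols as their only gene symbol in the platform annotation were taken. Zic1 and Zic2 take part in patterning the dorsal neural tube and forebrain, loss of Zic2 function disturbs forebrain division, and in the retina Zic2 directs the axons of ganglion cells that stay on their own side of the brain. Zic1 and Zic4 are neighbours in the genome, as are Zic2 and Zic5. The genes were chosen on their names with earlier results of the genotype comparison known, in which Zic1 intensities were lower in the mutants, so their differences between genotypes are given as a description, without p-values.

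Optic fissures, the ventral grooves of the developing optic cups, had been cut by laser microdissection from C57BL/6J mouse embryos at E11.5 and hybridised to Affymetrix arrays. All embryos carried Fgfr1fx/fx and Fgfr2fx/fx, alleles of the FGF receptor genes flanked by loxP sites. The 3 control samples were Six3Cre-, and the 3 mutant samples were Six3Cre+, carrying a Cre transgene driven by Six3 sequences in the early eye field and forebrain, so cells outside that domain are not expected to recombine. The numbers 8711, 9216 and 9266 in the titles each name 1 control and 1 mutant array. Whether a sample held 1 embryo or a pool is not given in the sources used here, so the p-values below cover no more than the spread among these samples, which could be technical.

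The 6 arrays had equal trimmed means of 150, and medians of 28.7 to 34.6 in 5 of them against 18.1 in the mutant 8711 array. That array also had a ratio of 3 prime to 5 prime Gapdh signal of 93.6, against 4.26 to 15.0 in the others, where a two-sided exact permutation test between the groups gave p = 0.700 (3 against 3 arrays cannot go below 0.1). Its Actb ratio stood out less, at 14.8 against 6.03 to 12.1 in the others, and the same permutation test gave p = 0.800. Where leaving out mutant 8711 moved the difference of a named gene, read by its brightest probe set, by over 1.5 times, both values are given. For second probe sets of genes other than Zic no such value is given. Of the targeted genes, the brightest probe set of Fgfr2 averaged 380 ± 83.7 in the controls and 1038 ± 243 in the mutants, and that of Fgfr1 192 ± 88.2 and 88.5 ± 45.9 (SD, n = 3 each). The place of these probes relative to the floxed exons was not analysed here, so they do not check the labelled genotypes. Of 10 markers of the optic cup and stalk, all 10 were measured above the filter level, a mean intensity of about 15.1 under which probe sets were left out of the tests.

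The start regions of Zic1, Zic4 and Zic5 are shown because Zic1 and Zic4 lie side by side and both had lower values in the mutants. The promoter reference used held no window for Zic2, so Zic2 was not searched. In RefSeq (GRCm38.p6) the annotated start sites of Zic1, on the minus strand, and Zic4, on the plus strand, lay 3204 bases apart on chromosome 9 and pointed away from each other. The 250 bases before each start site, written 5′ to 3′ on the strand of the gene, lie at chr9:91365769-91366018 (minus strand) for Zic1, chr9:91368722-91368971 (plus strand) for Zic4 and chr14:122465659-122465908 (minus strand) for Zic5. Capitals mark every match to a searched motif.
Zic1: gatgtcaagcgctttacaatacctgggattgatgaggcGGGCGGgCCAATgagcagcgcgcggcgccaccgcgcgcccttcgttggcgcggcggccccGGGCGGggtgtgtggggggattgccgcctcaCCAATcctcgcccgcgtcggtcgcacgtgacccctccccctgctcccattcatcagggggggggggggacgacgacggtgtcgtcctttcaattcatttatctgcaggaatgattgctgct
Zic4: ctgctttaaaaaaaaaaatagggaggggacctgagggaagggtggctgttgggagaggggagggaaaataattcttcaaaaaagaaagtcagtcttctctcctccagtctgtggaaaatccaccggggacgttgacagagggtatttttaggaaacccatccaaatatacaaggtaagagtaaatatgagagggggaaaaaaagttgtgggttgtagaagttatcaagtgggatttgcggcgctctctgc
Zic5: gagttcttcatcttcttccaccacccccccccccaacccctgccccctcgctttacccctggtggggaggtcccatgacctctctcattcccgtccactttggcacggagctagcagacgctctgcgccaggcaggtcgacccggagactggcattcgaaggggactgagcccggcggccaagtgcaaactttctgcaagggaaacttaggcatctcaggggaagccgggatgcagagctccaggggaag

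Both strands were searched for CCAAT, the box bound by NF-Y, for GGGCGG, the box bound by SP1, and for the TATA motif in the form TATAAA. The core of ZIC binding sites was searched as CAGCAGG, the GLI site as GACCACCCA, and an ETS site as CAGGAAG. The Zic1 window held CCAAT at -205 and -121 and GGGCGG at -212 and -152 relative to the start site, on the strand of the gene and without overlap. The Zic4 and Zic5 windows held none of the 6 motifs. Of 32851 RefSeq windows of this length, 33.8% held the NF-Y box, 32.7% the SP1 box, 12.4% the TATA motif, 8.44% the ZIC core, 0.225% the GLI site and 10.8% the ETS site. The windows differed in base composition. Zic1 had 27 CG dinucleotides and 66.0% G and C, Zic5 had 11 and 62.4%, and Zic4 had 4 and 44.4%, beside medians of 6.00 and 52.4% over all windows.

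All 8 Zic probe sets had a lower mean in the mutants than in the controls, beside 49.7% of all non-control probe sets. In 7 of the 8 every mutant array lay below every control array, beside 5.18% of all probe sets, and the exception was 1 Zic5 probe set. The median log2 difference of the 8, mutant minus control on the scale of log2(intensity + 1.7), was -1.11, with a range from -1.68 to -0.60, beside 0.0031 over all probe sets. Since these genes were picked with this comparison in view, the counts describe them and support nothing further. In limma, 0 of 27022 probe sets tested passed an adjusted p of 0.05 (0%), so none of the Zic probe sets did, while 2.55% were lower and 3.02% higher at an unadjusted p under 0.05. Of the 8, 6 passed the filter and the dimmest probe sets of Zic4 and Zic5 did not. In tissue RNA, fewer cells of a type and less RNA per cell cannot be told apart.

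**Figure D1:**
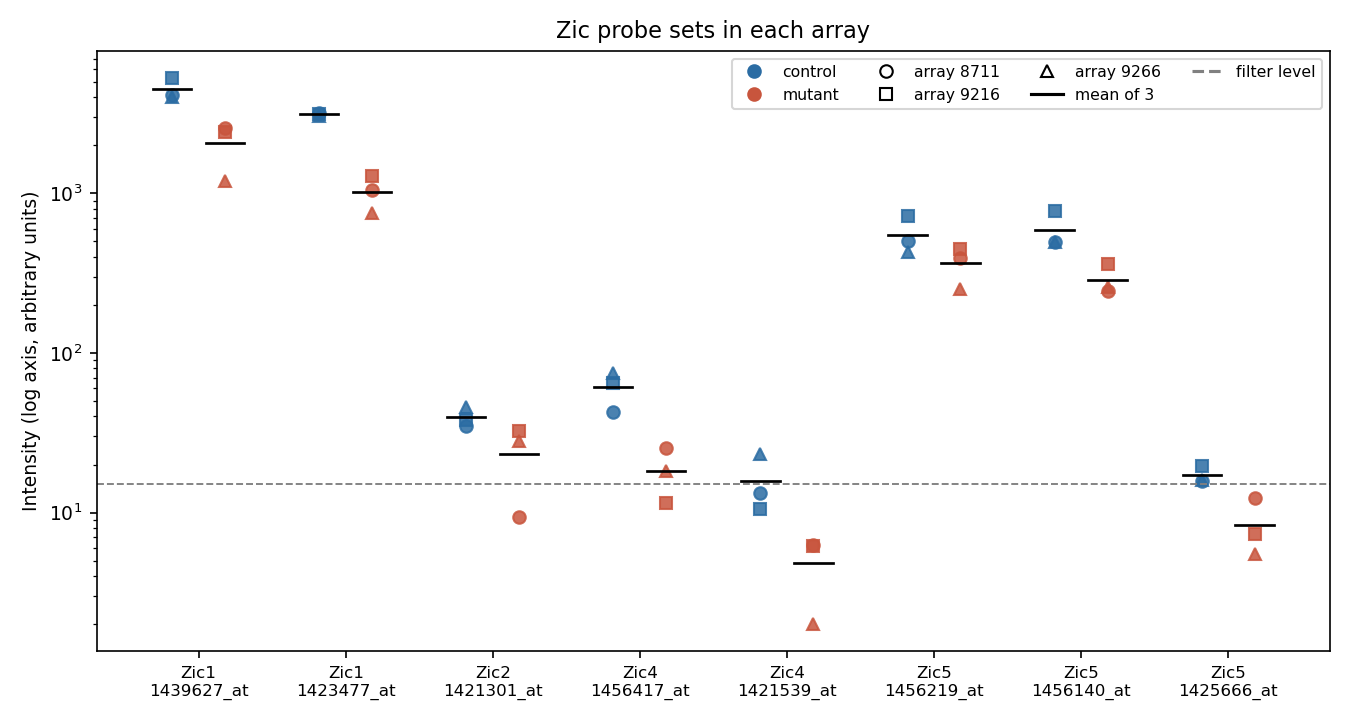
Intensity of the 8 Zic probe sets (x axis) in each of the 6 arrays (y axis, log scale, arbitrary units), controls in blue and mutants in red, with symbols for the array number, bars for the mean of 3 arrays and a dashed line at the filter level of 15.1. In every probe set but Zic5 1456219_at the 3 mutant points lie below the 3 control points, and levels of different probe sets are not comparable with each other.

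Zic1, which acts in dorsal neural tube and cerebellar development, was read by 2 probe sets, both far above the filter level. Probe set 1439627_at had control values of 4164.6, 5281.9 and 4038.3 and mutant values of 2578.9, 2421.7 and 1196.4, given here and below in the order 8711, 9216, 9266. The highest mutant array was below the lowest control array, which was 1.57 times as bright, and mutant 9266 stood lowest. The means were 4495 ± 684 and 2066 ± 757 (SD, n = 3), giving a log2 difference of -1.19 (SE 0.31), which was -0.84 without mutant 9266 and -1.39 without mutant 8711.

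Probe set 1423477_at of Zic1 had control values of 3177.4, 3164.9 and 3059.4 and mutant values of 1046.7, 1284.3 and 750.2. The control arrays were nearly equal, and the lowest of them was 2.38 times as bright as the highest mutant array, the widest gap of the 8 probe sets. The means were 3134 ± 64.8 and 1027 ± 268 (SD, n = 3), giving a log2 difference of -1.64 (SE 0.22), and with 1 array left out it stayed between -1.82 and -1.43. Mutant 9266 was again the lowest array, at -2.06 relative to the control mean on the log2 scale, against -1.58 in mutant 8711 and -1.29 in mutant 9216.

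Zic4, the neighbour of Zic1 and with it linked to cerebellar malformation when deleted in people, had low intensities. Probe set 1456417_at had control values of 42.8, 65.2 and 75.4 and mutant values of 25.3, 11.4 and 18.1. The groups did not overlap, but the mutant values lay around the filter level of 15.1. The means were 61.1 ± 16.7 and 18.3 ± 6.95 (SD, n = 3), giving a log2 difference of -1.68 (SE 0.40), the most negative of the family, and it ran from -1.93 to -1.40 with 1 array left out. The lowest array here was mutant 9216, while for both Zic1 probe sets it was mutant 9266.

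The second Zic4 probe set, 1421539_at, did not pass the filter. It had control values of 13.3, 10.6 and 23.4 and mutant values of 6.3, 6.2 and 2, again without overlap. Its log2 difference was -1.44, and at such intensities the value added before the logarithm weighs on the size: with 16 added in place of 1.7 it was -0.59, and that of 1456417_at was -1.17.

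Zic2, whose human counterpart is a holoprosencephaly gene, was read by 1 probe set, 1421301_at. It had control values of 34.9, 38.2 and 45.9 and mutant values of 9.4, 32.4 and 28. The groups were separate by a narrow margin, since the lowest control was 1.08 times as bright as the highest mutant, and mutant 8711 stood well below the other mutants. The means were 39.7 ± 5.64 and 23.3 ± 12.2 (SD, n = 3), giving a log2 difference of -0.88 (SE 0.49). Without mutant 8711, the array with the high Gapdh ratio, it was -0.37, and without both 8711 arrays -0.45, so the size was smaller. The direction could not change, since the groups were separate.

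Zic5, which lies beside Zic2 and takes part in neural tube closure and neural crest formation, was read by 3 probe sets. Probe set 1456140_at had control values of 492.4, 780.6 and 498.8 and mutant values of 243.9, 358.6 and 258.1. The groups did not overlap, and the 9216 array was the highest in each group. The means were 591 ± 165 and 287 ± 62.5 (SD, n = 3), giving a log2 difference of -1.02 (SE 0.27), from -1.20 to -0.81 with 1 array left out.

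Probe set 1456219_at of Zic5 had control values of 500.9, 721.8 and 427.9 and mutant values of 392.4, 447.4 and 251.9. Here the groups overlapped, because mutant 9216 was above control 9266. The log2 difference was -0.60 (SE 0.31), the smallest of the family, and it was -0.36 without mutant 9266 and -0.39 without control 9216. The third probe set, 1425666_at, did not pass the filter, with control values of 15.7, 19.6 and 16.1, mutant values of 12.3, 7.3 and 5.5 and a log2 difference of -0.95. The 3 Zic5 probe sets thus had the same sign but not the same separation of the groups.

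**Figure D2:**
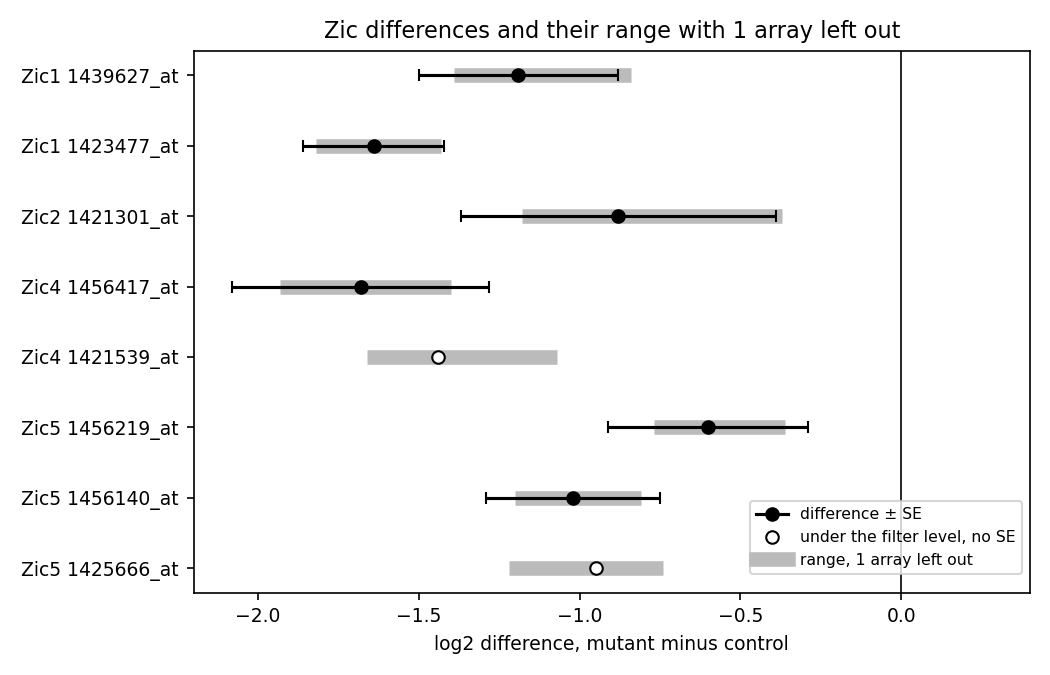
The log2 difference, mutant minus control (x axis), of each Zic probe set (y axis), with the standard error of the limma fit as whiskers for the 6 that passed the filter, open circles for the 2 that did not, and grey bars for the range when 1 array is left out. Every difference and every grey bar lies below 0, from the Zic4 value of -1.68 to the Zic5 value of -0.60, and the Zic2 bar reaches -0.37.

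The mutant arrays differed in which Zic gene was lowest. Mutant 9266 was the lowest array in 5 of the 8 probe sets, mutant 8711 in 2 (Zic2 and a Zic5 probe set) and mutant 9216 in 1 (Zic4). Among the controls, 9216 was the highest array in 4 probe sets and 9266 in 3. Set against the control array of the same number, the mutant array was lower in 24 of 24 combinations of probe set and number. In the 7 probe sets without overlap this had to follow, and the numbers were not taken as pairs, so the count adds nothing further. The log2 differences within a number ran from -2.76 (the dim Zic4 probe set, 9266) to -0.23 (Zic2, 9216). Without mutant 8711 all 8 probe sets were still lower in the mutants, with a median of -1.30, beside 42.4% of all probe sets. In 7 of them both remaining mutant arrays lay below every control array, beside 8.92% of all probe sets. These 7 were already separate with all arrays, so this had to follow.

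Genes with a profile near that of Zic1 were sought among 12278 tested genes, each by its brightest probe set, as the root mean square difference over the 6 arrays between log2 values taken relative to the control mean. The 5 nearest to Zic1 1439627_at were Gnai1 (0.15), a G protein subunit, Ifnz (0.16), Bmpr1b (0.17), a type I BMP receptor, Lgalsl (0.20) and Aqp11 (0.22), an aquaporin. All 5 were nearer than the second Zic1 probe set, at 0.39, which had flatter controls and lower mutants. Bmpr1b had control values of 1499.3, 1467 and 1314.3 and mutant values of 1009.5, 723.4 and 414.3. The groups of Bmpr1b were apart and mutant 9266 was lowest, as for Zic1, which the search for a near profile selects for. Its log2 difference was -1.08 (SE 0.32) with a limma adjusted p of 0.709, and those of the other 4 ran from -1.24 to -0.95 with adjusted p from 0.536 to 0.852. With array weights, Bmpr1b (-1.22) and Lgalsl (-1.01) both passed in limma, each at an adjusted p of 0.0440. Mutant 8711 had the lowest weight, 0.151, and control 8711 the highest, 5.98, against 0.625 to 1.59 for the others. The weighted control mean thus rested mostly on control 8711. Since the 5 genes were found by their likeness to Zic1, their differences and p-values describe them and support nothing further. Ifnz was dim, with a mutant mean of 11.3.

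The 5 genes nearest to Zic2 were B4galt2 (0.057), Gpat4 (0.080), 6330415B21Rik (0.11), Srrm2 (0.13) and Polr1a (0.14). They belong to sugar transfer, lipid synthesis, RNA splicing and ribosomal RNA transcription, apart from the unnamed transcript. Each had its lowest value in mutant 8711, as did Zic2, which the search selects for. Srrm2, which encodes a component of nuclear speckles, had control values of 4002.9, 4332.6 and 4364.9 and mutant values of 988.7, 3448.7 and 3314.8. The log2 differences of the 5 genes ran from -0.91 to -0.82, and without mutant 8711 from -0.41 to -0.29. More genes lay near the Zic2 profile than near that of Zic1, 169 within 0.3 against 18. The other Zic probe sets lay 0.50 to 0.98 from Zic2.

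Related factors and partners of the family had mixed values. Over all 12282 tested genes 46.4% had a lower mean in the mutants and the median log2 difference was 0.032. Of 5 tested GLI-type factors, 3 had lower and 2 higher means, with a median of -0.23, and without mutant 8711 1 was lower, with a median of 0.13. Among them Glis3 alone was lower in every mutant array, beside 5.43% of tested genes, with control values of 435.2, 496.6 and 418 and mutant values of 135.4, 234.3 and 146.7. The highest mutant value of Glis3, a zinc finger factor of the GLI-similar group, was well under the lowest control value. Its log2 difference was -1.42 (SE 0.27), with a limma adjusted p of 0.435. Gli3 and Gli2, the hedgehog effectors with which ZIC proteins can interact, were higher in every mutant array by 0.34 (SE 0.17) and 0.27 (SE 0.19), beside 9.44% of tested genes, both with adjusted p of 0.852. A second Gli3 probe set had -0.26, with control values of 674.7, 716.2 and 760.4 and mutant values of 354.2, 805.7 and 741.3. Gli1, a read-out of hedgehog signalling, had -0.60 (SE 0.73) and, without mutant 8711, 0.13.

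Of 12 tested hedgehog pathway genes, 7 had lower and 5 higher means, with a median of -0.100. With median centring 5 were lower, with a median of 0.012, and without mutant 8711 6 were, with a median of 0.063. None passed adjustment in either direction with equal array weights. Gas1, a surface protein that binds hedgehog ligands, had control values of 1107.3, 1818.7 and 1005.3 and mutant values of 2277.2, 3634 and 2795.8. The groups did not overlap, and 9216 was the highest array in each. Its log2 difference was 1.17 (SE 0.28) with a limma adjusted p of 0.536, and dimmer Gas1 probe sets had 0.14 and 0.58. With array weights it was 1.53 and passed, with a limma adjusted p of 0.0239. Hhip, a decoy for hedgehog ligands, had 0.61 (SE 0.50), and 0.27 without mutant 8711.

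Of 9 tested holoprosencephaly genes, the group to which human ZIC2 belongs, 6 were lower and 3 higher, with a median of -0.11 (4 lower with median centring, and a median of -0.18 without mutant 8711), and none passed adjustment with equal array weights. Six3, a homeobox gene of the forebrain and eye field and the source of the sequences driving the Cre transgene, had control values of 300.5, 365.3 and 355.3 and mutant values of 66.3, 218.8 and 280.3. All mutant values were below the controls, with mutant 8711 far below. The log2 difference was -1.08 (SE 0.53, limma adjusted p = 0.852), and without the mutant 8711 array -0.45. Of its other probe sets, neither of which passed the filter, 1 went the other way, with control values of 6.5, 2.3 and 2.3, mutant values of 1.6, 53.9 and 78.8 and a log2 difference of 2.27, and the dimmest had -0.28. The place of these probes relative to the transgene was not analysed here. Shh, the ligand itself, was dim, at 25.5 ± 4.26 and 21.7 ± 13.6 (SD, n = 3), a log2 difference of -0.39, and -0.82 without mutant 8711.

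Of 6 tested genes of the Zic2 programme in retinal axons, 3 were lower and 3 higher, with a median of -0.17 (0.21 without mutant 8711), and none passed adjustment. Ephb1, the guidance receptor that Zic2 switches on in uncrossed ganglion cells, had 34.5 ± 9.87 and 24.9 ± 7.51 (SD, n = 3), giving a log2 difference of -0.45 (SE 0.38), and -0.22 without mutant 8711. Foxd1, a forkhead factor upstream of Zic2 in the ventrotemporal retina, had control values of 28.6, 102.5 and 48.1 and mutant values of 138.2, 94.5 and 73.6, with overlapping groups and a difference of 0.90 (SE 0.50). Pou4f1, a ganglion cell factor, had -1.08 (SE 0.55), and -0.55 without mutant 8711. Nrcam, an adhesion protein of crossing axons, had 0.81 (SE 0.32), and its other tested probe sets had 1.16 and 0.16. The last of these had control values of 41.6, 41.9 and 27.5 and mutant values of 21.9, 35.8 and 85.9.

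ZIC proteins can restrain transcription by beta-catenin and TCF, and 7 genes of that machinery were tested, of which 4 were lower and 3 higher, with a median of -0.017 (3 lower and 0.094 with median centring, 3 lower and 0.0018 without mutant 8711). Lgr5, an R-spondin receptor and Wnt target, had control values of 137.1, 175.4 and 133.4 and mutant values of 13.4, 75.7 and 79.3, lower in every mutant array and lowest in mutant 8711. Its log2 difference was -1.71 (SE 0.66, limma adjusted p = 0.852), and -0.91 without that array. Dkk1, a Wnt inhibitor, and Axin2, a common Wnt target, had 0.67 (SE 0.41) and 0.40 (SE 0.34), and Tcf7l1, a TCF repressor, -0.46 (SE 0.29), all with overlapping groups. A second tested probe set of Dkk1 had 0.72 (SE 0.23) with separate groups, and that of Tcf7l1 went the other way, with 0.10 (SE 0.22). By their brightest probe sets, Dkk1 was 0.35 and Tcf7l1 -0.24 without mutant 8711.

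Of 7 tested neural plate border and crest genes, 5 were lower and 2 higher, with a median of -0.027, and with median centring 1 was lower. Without mutant 8711 3 were lower, with a median of 0.085. Twist1, which also marks mesenchyme, had control values of 15, 7 and 18.5 and mutant values of 42.7, 40.8 and 55.5, a difference of 1.73 (SE 0.42, limma adjusted p = 0.536). Its control mean of 13.5 lay under the filter level, and with 16 added before the logarithm the difference was 1.09. Mycn, a proliferation factor, and Msx1, a homeobox gene, had -0.47 (SE 0.27) and 0.21 (SE 0.46), and without mutant 8711 -0.76 and 0.52. The genome neighbours of the Zic genes had mixed values as well. Of 7 tested genes among those nearest to the Zic pairs, 4 were lower and 3 higher, with a median of -0.26, none with separate groups. Tbc1d2b, next to Zic1, had -0.37 (SE 0.30) and Adamts7, beyond it, -0.56 (SE 0.58), and -0.31 without mutant 8711. Pcca, next to Zic2, had 0.34 (SE 0.26), and 0.11 without that array. Ggact, beyond it, had -1.42 (SE 0.60), with overlapping groups and mutant values of 8.4, 27.8 and 4.4. The mutant mean of Ggact, 13.5, lay under the filter level. None of the genes in these last 3 lists passed adjustment in limma. At an unadjusted p under 0.05 the neighbours had 0 genes, and each of the other 6 lists had 1: Glis3 and Lgr5 lower, and Gas1 (in both the hedgehog and holoprosencephaly lists), Nrcam and Twist1 higher. Over all tested genes 2.52% were lower and 4.40% higher at that p.

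**Figure D3:**
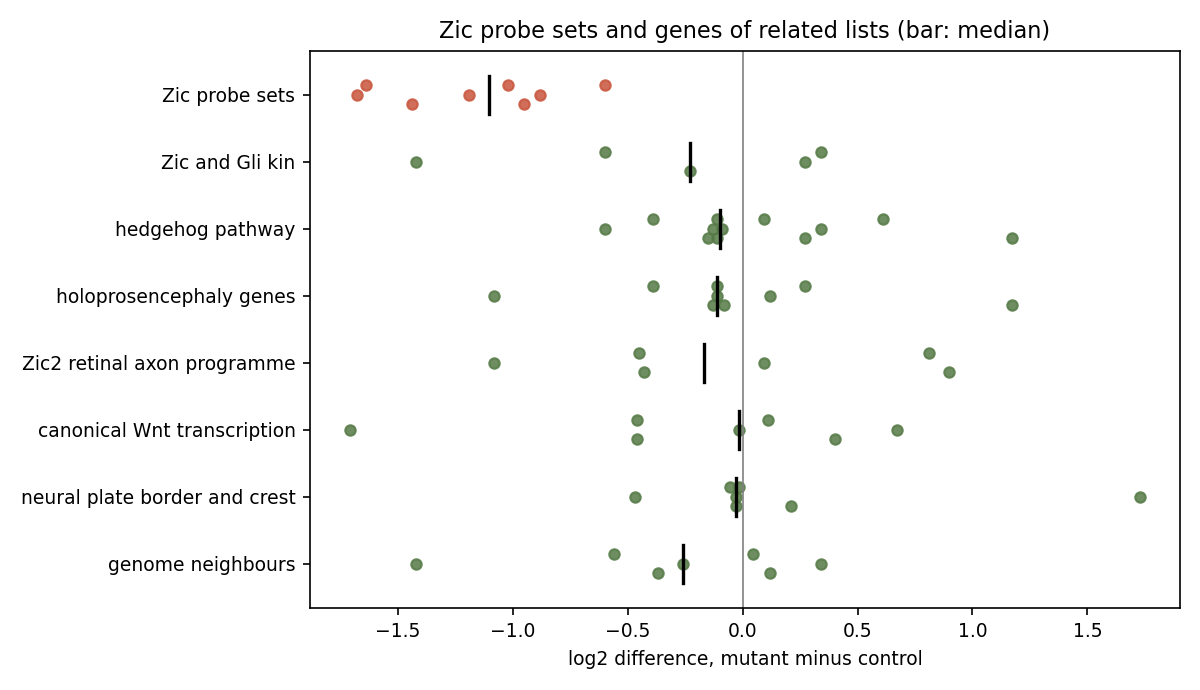
Log2 difference, mutant minus control (x axis), of the 8 Zic probe sets in red and of the tested genes of 7 related lists in green, 1 point for each probe set or gene, with a black bar at each median. The Zic points lie between -1.68 and -0.60, while the medians of the other lists lie between -0.26 and -0.017.

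Markers of several cell types differed between the groups along with the Zic genes. Of the 10 optic cup and stalk genes, the markers of the dissected tissue itself, 8 had lower means in the mutants, beside 46.4% of all tested genes. The median of their log2 differences was -0.89 (7 lower and -0.68 without mutant 8711). In 5 every mutant array lay below every control array, beside 5.43% of tested genes, and in 1 every mutant array lay above, beside 9.44%. Their summed intensity was 10768 to 13033 in the controls and 8046 to 10374 in the mutants. All 6 tested neural retina progenitor genes had lower means in the mutants, with a summed intensity of 4868 to 5820 in the controls and 2198 to 2790 in the mutants. All 6 pigment epithelium genes had higher means, with sums of 10254 to 12282 and 15948 to 25258, and so had all 11 tested mesenchyme and meninges genes, with sums of 1143 to 2403 and 2843 to 3340. The median of the mesenchyme and meninges list was 0.69, but 0.26 without control 9216, the lowest array for that list. In 4 of these 11 genes every mutant array lay above every control array, beside 9.44% of tested genes. Of 6 ciliary margin genes 4 were lower (sums of 5083 to 7251 and 2957 to 3716), and of 7 macrophage genes 5 were higher (1463 to 1867 and 2097 to 2618). The 3 tested ganglion cell and neuron genes had lower means, and Pou4f2, Isl1 and Dcx were not tested. The mutant means of Atoh7 (10.3) and Elavl3 (14.7) lay under the filter level. These genes passed the filter through the controls, so their direction adds nothing further. The sums over all 5 ganglion cell and neuron genes on the arrays, tested or not, were 103 to 473 and 49.0 to 61.3. Of the control sums, Atoh7 alone gave 293.2 in control 9266, against 48.7 and 16.5 in the other controls. Of the remaining lists, 3 of 4 tested lens genes were lower (1049 to 1608 and 328 to 2131), as were 2 of 4 tested vascular genes (206 to 446 and 164 to 285). The sums of these lists also cover all 5 genes on the arrays. All 4 erythroid genes were higher (4178 to 7380 and 7389 to 8669). No marker on the arrays was at 0 in all 6, and none passed adjustment in limma with equal array weights. The part of these cell types in the Zic values was not tested.

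Array by array, the marker lists and the Zic genes did not follow 1 order. Mutant 9266, the lowest array for both Zic1 probe sets, had the highest mean of the pigment epithelium list, at 1.36 above the control mean on the log2 scale, against 0.49 in mutant 8711 and 0.68 in mutant 9216. The neural retina progenitor list was nearly equal in the 3 mutants, from -1.27 to -1.18. Control 9216, the highest array for 4 Zic probe sets, had the lowest mean of the mesenchyme list, at -0.68, against 0.31 and 0.37 in the other controls.

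**Figure D4:**
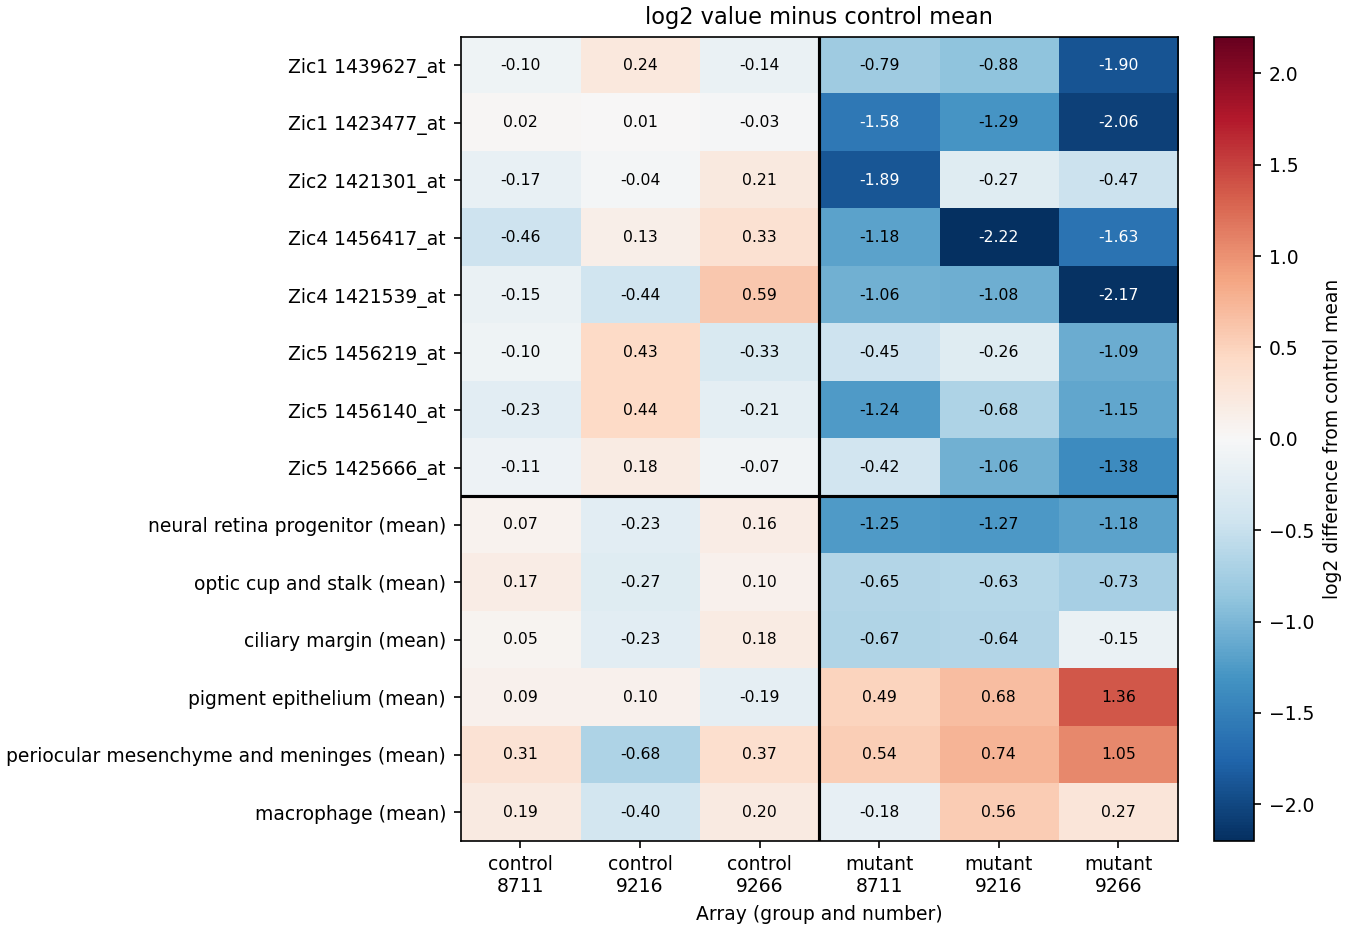
Log2 value minus the control mean (colour and printed number) of the 8 Zic probe sets, above the line, and of the mean of 6 marker lists, below it, in the 3 control and 3 mutant arrays (columns). The Zic rows are below 0 in all mutant arrays, as is the neural retina progenitor list, while the pigment epithelium and mesenchyme lists are above 0 there.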

How the data were processed

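The deposited table gives linear intensity values for probe sets. MAS5 is the tool named per the submitters' processing notes (version and settings are not given), and per the labels 10 ug of total RNA was used for biotinylated cRNA. Every array had a 2% trimmed mean of 150, so scaling by the authors was kept and no normalization was added. Such scaling does not correct an array that lost signal in part of its probe sets. Detection calls were not used.

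The table held 45101 probe sets, of which 64 manufacturer controls were left out. A single gene symbol was annotated for 34945 of the rest, several for 932 and none for 9160. Values were analysed as log2(intensity + 1.7), where 1.7 is the 10th percentile of the whole table, and differences on this scale understate changes of dim genes. Probe sets with a mean log2 value under the 40th percentile (4.07, an intensity of 15.1) were left out, leaving 27022, and a gene other than Zic was read by its brightest probe set. The genotypes were compared in limma 3.58.1 (lmFit and eBayes with trend and robust), with statmod 1.5.0 under R 4.3.3, and p-values were adjusted by the Benjamini-Hochberg method. The fit was tested on simulated data. Having 3 arrays in a group limits how precise any difference is.

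The Zic genes and all lists were chosen with earlier results of these data known. From each related list up to 4 genes with the smallest p were named (3 for crest), with the 5 genes nearest to Zic1 and to Zic2, and Fgfr1 and Fgfr2. Motifs were searched in RefSeq promoter windows of GRCm38.p6. Alternatives were other added values, scalings and filters, the number as a block, array weights, another variance model, a threshold of 0.10, the mean of probe sets, and leaving out arrays. Same-numbered arrays had correlations of their deviations from group means of 0.0493, 0.481 and -0.113, against -0.453 to 0.346 for arrays of different numbers. With 3 arrays in a group these correlations cannot decide whether the numbers mark pairs. The numbers were not taken as pairs, and a block for them was an alternative.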

Additional observations from a re-analysis of the deposited data

How the results depend on the processing

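All 8 Zic probe sets were lower in the mutants under each of the 12 other settings that could change a difference. For the 7 whose groups did not overlap, leaving out arrays, other added values and array weights could not change the sign. Only median centring and quantile normalization could have done so. With median centring, which moved the median of all probe sets from 0.0031 to 0.11, the Zic median was -1.0, and with quantile normalization -1.13. Dim probe sets moved most: with 16 added before the logarithm Zic4 1456417_at had -1.17, Zic4 1421539_at -0.59 Zic5 1425666_at -0.45 and Zic2 -0.55. With array weights, under which the control mean rested mostly on control 8711, Zic2 had -0.34 and Zic5 1456140_at had -0.68. Without both 8711 arrays Zic4 1456417_at had -2.16. Over all probe sets, 0 passed the threshold, against 184 with array weights (among them Gas1, Bmpr1b, Lgalsl and Fgfr2, whose adjusted p in limma were 0.0239, 0.0440, 0.0440 and 0.0305), 0 to 1 when 1 array was left out (1 without mutant 8711), and 1 without both 8711 arrays. With the number in the titles as a replicate block 0 passed, and the differences of the Zic probe sets were the same by construction. With 1 array left out Gli1 ranged from -1.12 to 0.13, Shh from -0.82 to 0.12 and Msx1 from -0.093 to 0.52. Without both 8711 arrays Gli1 was 0.51, and with array weights Dkk1 was -0.042. The causes were not tested. A filter at the 60th percentile left out the Zic2 and Zic4 probe sets and 1 Zic5 probe set, so their signal over background limits what can be said of them.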
